A study of Mus musculus with 1104 samples.

Results

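The 55 genes described here cut, protect and cross-link the extracellular matrix. They were taken from the deposited table by symbol, as every row named Mmp, Adamts or Adamtsl followed by a number, Timp1 to Timp4, and Lox with Loxl1 to Loxl4, and they make up 55 of its 20646 genes. They comprise 22 matrix metalloproteinases (MMP), 19 ADAMTS proteases, 5 ADAMTS-like proteins, 4 tissue inhibitors of metalloproteinases (TIMP) and 5 lysyl oxidases (LOX). The study sequenced polyadenylated RNA of 13 organs from male C57BL/6 wild-type mice that were given a high-fat diet (60% of calories from fat) from 8 weeks of age, and took 6 mice at each time. Organs were collected on day 0 (written 0d) and at 13 later times from 1 day to 12 weeks (12w), and epididymal white fat also at 16 and 20 weeks, which gave 1104 libraries in 184 groups. Every later group is older than the 0d group as well as longer on the diet, and may have been dissected on another day. The sample labels used here give no dissection dates. Diet, age and day therefore cannot be told apart, and mice kept off the diet are not analysed here. Mice were housed up to 6 to a cage, and the labels do not say which mice shared one, so p-values measure the spread between these samples.

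As background, MMPs are zinc proteases that are made as inactive precursors, and together they can cleave most matrix proteins. TIMPs bind their active site and block it. ADAMTS proteases carry thrombospondin repeats and divide by substrate into proteoglycanases, procollagen processing enzymes and others, while ADAMTS-like proteins keep the repeats and lack the protease. Lysyl oxidases oxidise lysines of collagen and elastin, the step from which covalent cross-links form. In fat that expands these enzymes act on the basement membrane around each adipocyte and on the collagen between cells.

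Many MMP genes lie side by side. Of the 22 MMP genes, 9 (Mmp13, Mmp12, Mmp1b, Mmp3, Mmp10, Mmp8, Mmp27, Mmp20 and Mmp7) sit within 427 kb of chromosome 9 (chr9:7272514-7699585, GRCm38). The 4 promoters below belong to the cluster genes that moved most in epididymal fat, 3 of which rose and 1 of which fell there. Each is the 150 bases upstream of a RefSeq transcript start, on the plus strand of GRCm38.p6 (chr9:7347224-7347373 for Mmp12, chr9:7272364-7272513 for Mmp13, chr9:7445672-7445821 for Mmp3 and chr9:7691940-7692089 for Mmp7), and capitals mark the letters TGAGTCA or their reverse complement TGACTCA, which AP-1 factors are known to bind.
Mmp12: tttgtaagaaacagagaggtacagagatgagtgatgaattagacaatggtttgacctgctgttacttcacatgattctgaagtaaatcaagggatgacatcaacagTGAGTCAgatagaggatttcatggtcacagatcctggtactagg
Mmp13: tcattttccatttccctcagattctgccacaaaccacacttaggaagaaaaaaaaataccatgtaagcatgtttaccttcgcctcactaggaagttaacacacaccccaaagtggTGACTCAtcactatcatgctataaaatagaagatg
Mmp3: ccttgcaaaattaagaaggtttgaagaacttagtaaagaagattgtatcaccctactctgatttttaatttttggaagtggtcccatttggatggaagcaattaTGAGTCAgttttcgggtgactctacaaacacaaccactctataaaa
Mmp7: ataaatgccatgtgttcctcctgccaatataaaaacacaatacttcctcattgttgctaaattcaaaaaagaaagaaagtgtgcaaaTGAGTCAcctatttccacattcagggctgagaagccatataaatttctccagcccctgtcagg
The match begins 44 bases before the start in Mmp12, 35 in Mmp13, 46 in Mmp3 and 63 in Mmp7. RefSeq promoter windows were at hand for 36 of the 55 genes, and 6 held the letters (also Mmp10 and Mmp1b), all in this cluster. Over all genes with a window, which runs from 250 bases before to 50 after a start, 1607 of 27025 (5.95%) held them. Mmp12 and Mmp7 each have another RefSeq start whose window holds no match. A match is a run of letters and not a measured binding site.

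Library totals ran from 7670532 to 27036098 counts (median 13464321), so that 1 CPM (a count scaled to the size of its library) stands for about 13 counts in the median library. Levels are given in CPM with TMM scaling, as the lowest, median and highest of 6 mice, and changes as log2 fold changes with standard errors from edgeR's quasi-likelihood test, called at a Benjamini-Hochberg adjusted p under 0.05 over all genes tested in that organ and comparison. Of the 55 genes, 53 were high enough to be tested in at least 1 organ and 25 in all 13, while Mmp1b and Mmp21 were tested in none. Defining genes were checked against the organ labels, and Ucp1, for example, had a mean of 9840 CPM in brown fat and 0.00838 CPM in liver. Some libraries held RNA of neighbouring tissue or stood apart. In epididymal fat at 0d the summed hepatocyte markers reached 1740 CPM in replicate 1. Inguinal fat at 0d held 898 to 2510 CPM of B cell and lymph node markers, against 14.2 to 37.1 CPM at 12w. In soleus, replicate 1 at 0d correlated with the other 5 libraries of its group at a median of only 0.82. In epididymal fat at 3d, replicate 6 held 2510 CPM of the pancreatic gene Cela1 and replicate 2 held 12600 CPM of the muscle gene Myh4. Small intestine libraries held 12.7 to 8150 CPM of Cela1 (mean 1460) and 9.92 to 5690 CPM of Cpa1, another pancreatic gene (mean 1060). What part pancreas RNA had in the small intestine changes was not tested. In olfactory bulb at 4w, replicate 6 held 2.49 CPM of Th, against 156 CPM or more in every other library of that organ. Within each organ the 12w and 20w counts were also made with 1 library fewer per group, the least correlated, which leaves out replicate 1 at 0d in epididymal fat and in soleus.

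Several of these genes share exons with a gene on the opposite strand, and how counting treated strand is not given in the sources used here. Mmp11 (stromelysin-3) followed Chchd10, a mitochondrial protein gene whose exons overlap it, in every organ: within time points the 2 correlated across libraries at r from 0.902 to 1.00, as a description of 84 or 96 libraries per organ. Median Mmp11-to-Chchd10 ratios lay between 0.678 and 0.778 in 11 organs, at 0.896 in inguinal fat and at 1.248 in epididymal fat. The same held in part for Mmp24 with BC029722, at a median ratio of 0.47 to 0.602 in the 9 organs outside the 4 brain regions, and for Timp3 with Syn3, at 1.911 to 2.487 in all 13 organs. Mmp28 and 1700020L24Rik (r = 0.888 in epididymal fat, at a median ratio of 3.02), Loxl3 and Htra2, and Timp4 and Syn2, in whose introns Timp4 is known to lie, are further such neighbours. Without the strand setting, reads of the exon stretch that such a pair shares cannot be assigned to either gene. That stretch is 90 of 5894 exon bases in Timp4 and 535 of 4603 in Loxl3. Across organs r ran from -0.724 to 0.665 for Timp4 with Syn2, and from -0.235 to 0.596 for Loxl3 with Htra2. Values of Mmp11, Mmp24, Timp3 and Mmp19 (which overlaps Tmem198b) at 12w are given below with the partner's change.

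**Figure D1:**
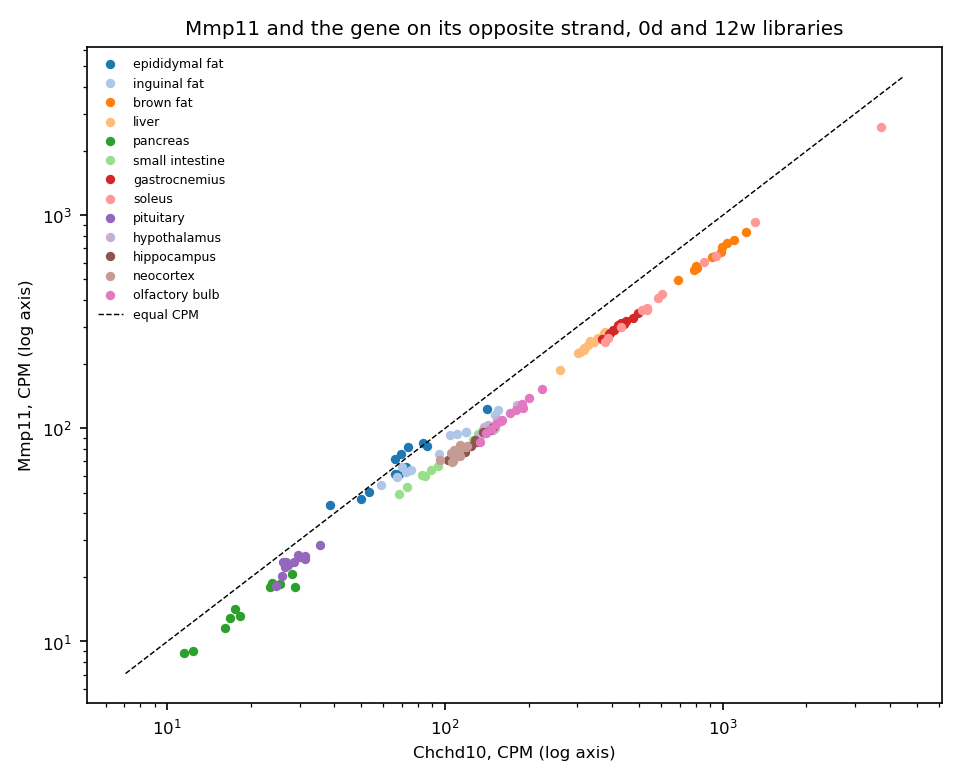
Mmp11 against Chchd10 in CPM, both axes logarithmic, 1 point per library at 0d and 12w, coloured by organ, with a dashed line of equal CPM. Most points form 1 band just below the line from pancreas to soleus, with both white fat depots and the pituitary nearer the line, and some epididymal points above it.

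Before the diet an inhibitor was the most abundant gene of the set per length in 8 of 13 organs. On the scale of mean CPM per kb of exon at 0d, Timp2 led in epididymal fat (140.9), inguinal fat (127.3) and hypothalamus (172.2), and it was first in the hippocampus, neocortex, olfactory bulb and pancreas too. Timp3, the inhibitor that stays bound to the matrix, was among the first 3 genes in 7 organs. Mmp7 (matrilysin) reached 119.9 CPM per kb in epididymal fat and 111.3 in small intestine, where Paneth cells are known to make it. Mmp17, a membrane-anchored MMP, ranked second in hippocampus (39.82) and neocortex (30.8). Mmp10 (stromelysin-2) passed the filter in small intestine only, at 17.67 CPM per kb. Mmp19 came second in liver (20.46) and Loxl1, the elastin cross-linker, was among the first 3 in pituitary (20.74). Mmp11 led in soleus (269.2), brown fat (208.1), gastrocnemius (104.3) and liver (89.79), and Mmp7 in small intestine. The soleus mean rests on replicate 1, and the other 5 mice gave 136.4 ± 56.2 CPM per kb (SD), below brown fat. These Mmp11 levels cannot be told apart from those of Chchd10.

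At 12w the white fat depots held the most called genes. In epididymal fat 24 of 49 tested genes were higher and 14 lower than at 0d, against a background of 60.4% of all tested genes called there in either direction. Inguinal fat had 21 higher and 6 lower of 48 (44.6% of all genes), brown fat 11 and 4 of 40 (27.6%), liver 13 and 1 of 33 (42.0%), small intestine 16 and 2 of 45 (38.9%) and pituitary 8 and 9 of 47 (45.6%). In the brain, lower calls outnumbered higher ones: neocortex had 1 higher and 8 lower of 44 (25.0%), hippocampus 2 and 6 of 43 (25.6%), olfactory bulb 3 and 5 of 42 (20.8%) and hypothalamus 0 and 4 of 43 (6.8%). Among all called genes, 53.0% were higher in neocortex, 51.6% in hippocampus, 52.0% in olfactory bulb and 45.5% in hypothalamus. Gastrocnemius had 1 higher and 5 lower of 41 (5.94%), pancreas 0 and 2 of 32 (5.9%) and soleus 1 and 1 of 40 (3.88%). The median log2 fold change of the tested genes was 0.416 in epididymal fat, 0.466 in inguinal fat, 0.266 in brown fat and 0.362 in liver, while that of all tested genes lay within 0.01 of 0 in each. In gastrocnemius the median was -0.267, against -0.0276 for all genes.

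**Figure D2:**
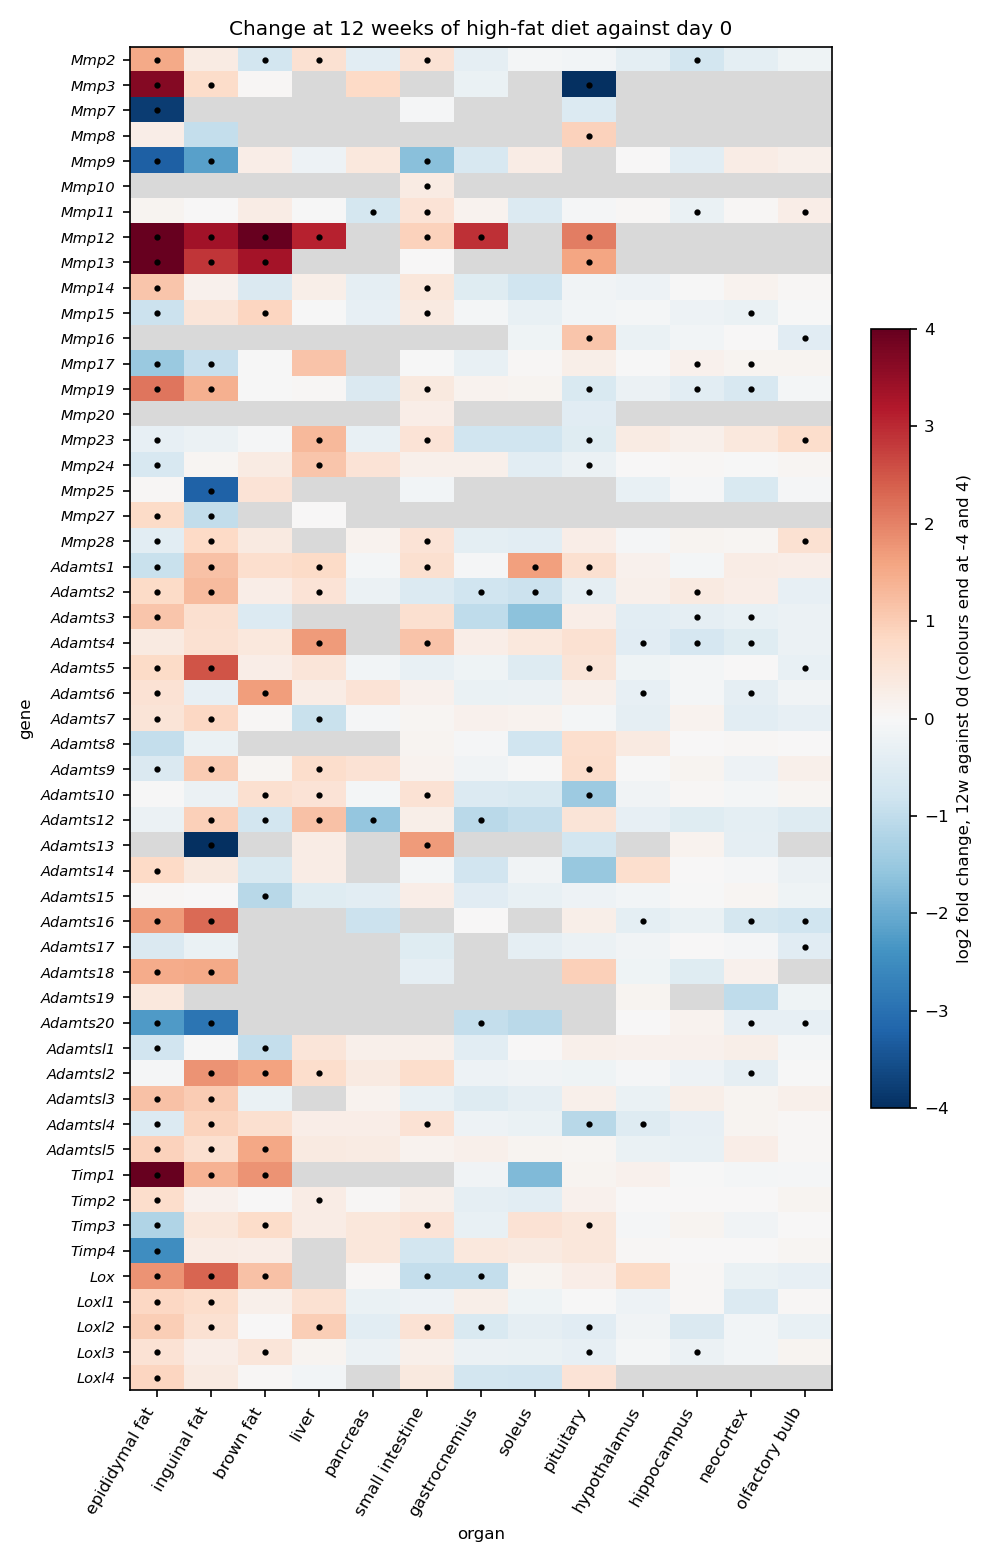
Log2 fold change at 12w against 0d for the 53 genes tested in at least 1 organ (rows) in 13 organs (columns), red higher and blue lower, grey not tested; dots mark an edgeR adjusted p under 0.05. The 3 fat depots share the red cells of Mmp12, Mmp13, Timp1 and Lox, and Mmp9 is blue in both white depots and in small intestine. Mmp12 and Timp1 in brown fat and Mmp13 in both white depots passed the filter through libraries later than 0d.

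In epididymal fat at 12w, the 4 cluster genes whose promoters are printed above moved apart in direction: Mmp12, Mmp13 and Mmp3 rose and Mmp7 fell. Outside the cluster Mmp19, Mmp2 and Mmp14 rose and Mmp9 fell. Of 17 tested MMP genes, 7 were higher and 7 lower, beside 60.4% of all genes called in either direction. Mmp12, the macrophage metalloelastase, ranged from 8.44 to 36.1 CPM at 0d (median 12.1) and from 667 to 3517 CPM at 12w (median 1702). All 6 Mmp12 values at 12w were above all 6 at 0d, with a log2 fold change of 6.77 ± 0.61 (SE; edgeR adjusted p = 1.7e-16). Mmp13, the interstitial collagenase-3, lay between 0 and 0.209 CPM at 0d, with a median of 0.0614, and between 3.14 and 10.9 CPM at 12w, with a median of 5.82. The Mmp13 groups did not overlap, with every 12w value on the higher side, and the log2 fold change was 6.05 ± 0.60 (SE; edgeR adjusted p = 1.1e-14). At 0d Mmp13 was too low for the filter, so it was tested here through later libraries. Being tested and being higher are thus tied for this gene. Mmp3, stromelysin-1, a protease that also activates other MMPs, had a median of 2.66 CPM at 0d (lowest mouse 2.36, highest 3.44) and of 38.7 CPM at 12w (lowest 24.4, highest 43.3). Mmp3 was higher in each mouse at 12w than in any at 0d, and its log2 fold change was 3.67 ± 0.53 (SE; edgeR adjusted p = 7.5e-09). Mmp19 ranged from 47.2 to 92.7 CPM at 0d (median 63.4) and from 214 to 475 CPM at 12w (median 245). All 6 Mmp19 values at 12w were above all 6 at 0d, with a log2 fold change of 2.15 ± 0.17 (SE; edgeR adjusted p = 1.5e-18). Its partner Tmem198b rose by 1.43 ± 0.13. Mmp2, gelatinase A, which degrades basement membrane collagen, lay between 73.2 and 109 CPM at 0d, with a median of 93.7, and between 168 and 347 CPM at 12w, with a median of 259.9. The Mmp2 groups did not overlap, with every 12w value on the higher side, and the log2 fold change was 1.53 ± 0.22 (SE; edgeR adjusted p = 7.6e-09). Mmp14, the membrane-type MMP that activates pro-Mmp2, rose from a median of 74.5 to 166 CPM (1.12 ± 0.22, edgeR adjusted p = 8.6e-06, groups apart).

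Both gelatinases are expressed in this depot, and they moved in opposite directions. Mmp9, gelatinase B, which neutrophils carry in their granules, had a median of 22.9 CPM at 0d (lowest mouse 16.3, highest 31.2) and of 2.47 CPM at 12w (lowest 1.6, highest 2.96). Mmp9 was lower in each mouse at 12w than in any at 0d, and its log2 fold change was -3.28 ± 0.37 (SE; edgeR adjusted p = 2.8e-12). Neutrophil markers fell in 4 of 6 tested genes, where 60.4% of all genes were called in either direction. Their sum ran from 8.74 to 220 CPM at 0d and from 13.6 to 37.7 CPM at 12w. The part of this in the Mmp9 change was not tested. Mmp7 ranged from 0.0621 to 259 CPM at 0d (median 133) and from 5.14 to 13.3 CPM at 12w (median 9.3). Some Mmp7 values overlapped between the groups, and the log2 fold change was -3.80 ± 0.67 (SE; edgeR adjusted p = 9.6e-07). The overlap came from replicate 1 at 0d, which held 0.0621 CPM. Mmp7 moved with markers of ciliated cells, whose 5 genes were all lower at 12w and summed to 0.807 to 370 CPM at 0d and 7.53 to 16.8 CPM at 12w. Within time points, as deviations from the time point's mean of log2(CPM + 1), the 2 were correlated at r = 0.912 and rho = 0.863 over 96 libraries (adjusted permutation p = 2.1e-05, r = 0.848 without the 2 libraries farthest from the median sum). With epididymis markers Mmp7 gave r = 0.211 and rho = 0.272 (adjusted permutation p = 0.0512 and 0.0138, r = 0.176 without the 2 farthest), and with mesothelium markers, summing to 84.6 to 399 CPM at 0d and 79.7 to 133 CPM at 12w, r = 0.638 and rho = 0.523 (adjusted permutation p = 2.1e-05, r = 0.567). What part other tissue in the dissection had in the Mmp7 values was not tested. Of the other cluster genes, Mmp27 rose in this depot (0.77 ± 0.34, edgeR adjusted p = 0.043) and Mmp8, the neutrophil collagenase, did not pass (0.25 ± 0.61).

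Among the inhibitors of epididymal fat, Timp1 and Timp2 rose while Timp3 and Timp4 fell. Timp1, a secreted inhibitor with growth factor activity, lay between 2.09 and 6.37 CPM at 0d, with a median of 3.46, and between 38.6 and 109 CPM at 12w, with a median of 63.2. The Timp1 groups did not overlap, with every 12w value on the higher side, and the log2 fold change was 4.14 ± 0.46 (SE; edgeR adjusted p = 9.4e-13). Timp4, an inhibitor with a narrow tissue range that includes fat, had a median of 297 CPM at 0d (lowest mouse 226, highest 383) and of 47.1 CPM at 12w (lowest 23.3, highest 112). Timp4 was lower in each mouse at 12w than in any at 0d, and its log2 fold change was -2.50 ± 0.35 (SE; edgeR adjusted p = 3.3e-09). Syn2 changed by -0.92 ± 0.19, at a median of 14.4 CPM over all 96 libraries against 227 CPM for Timp4. Timp2, which blocks MMPs and also takes part in pro-Mmp2 activation, ranged from 425 to 606 CPM at 0d (median 561) and from 693 to 1095 CPM at 12w (median 869). All 6 Timp2 values at 12w were above all 6 at 0d, with a log2 fold change of 0.71 ± 0.12 (SE; edgeR adjusted p = 7.6e-07). Timp3 lay between 413 and 683 CPM at 0d, with a median of 611, and between 152 and 416 CPM at 12w, with a median of 244. Some Timp3 values overlapped between the groups, and the log2 fold change was -1.21 ± 0.23 (SE; edgeR adjusted p = 3.3e-06). Syn3, the partner on the other strand, fell by 1.47 on the log2 scale.

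All 5 lysyl oxidases of epididymal fat were higher at 12w, beside 31.0% of all genes. Lox, the founding member, had a median of 67.6 CPM at 0d (lowest mouse 49.7, highest 80.6) and of 226 CPM at 12w (lowest 190.0, highest 280.1). Lox was higher in each mouse at 12w than in any at 0d, and its log2 fold change was 1.80 ± 0.18 (SE; edgeR adjusted p = 3.5e-14). Loxl1 rose from a median of 119 to 209 CPM (0.82 ± 0.14, edgeR adjusted p = 2.1e-07, groups apart). Loxl2, which acts on basement membrane collagen, rose from a median of 54.1 to 98 CPM (0.97 ± 0.23, edgeR adjusted p = 0.00015, groups apart). Loxl3 rose from a median of 23.9 to 35.3 CPM (0.57 ± 0.10, edgeR adjusted p = 9.6e-07, groups apart), beside 0.34 ± 0.12 for its neighbour Htra2. Loxl4 rose from a median of 3.21 to 5.63 CPM (0.87 ± 0.24, edgeR adjusted p = 0.0013, groups overlapping). Of 18 ADAMTS genes 8 were higher and 3 lower, and of 5 ADAMTS-like genes 2 were higher and 2 lower. Of all genes, 60.4% were called in either direction. Adamts5, the main aggrecanase, a protease of aggrecan and versican, ranged from 157 to 219 CPM at 0d (median 198) and from 246 to 405 CPM at 12w (median 335). All 6 Adamts5 values at 12w were above all 6 at 0d, with a log2 fold change of 0.78 ± 0.19 (SE; edgeR adjusted p = 0.00035). Adamts2, a procollagen N-proteinase, rose from a median of 168 to 278 CPM (0.77 ± 0.16, edgeR adjusted p = 2.2e-05, groups apart). Adamts1, a versican-cleaving protease, lay between 58.7 and 162 CPM at 0d, with a median of 70.1, and between 36.3 and 62.5 CPM at 12w, with a median of 46.8. The Adamts1 groups overlapped in part while Adamts1 fell by test, at a log2 fold change of -0.88 ± 0.23 (SE; edgeR adjusted p = 0.00065). Adamtsl5, a protein of elastic microfibrils, rose from a median of 17.1 to 30.1 CPM (0.92 ± 0.16, edgeR adjusted p = 4.7e-07, groups apart). Adamts2 and Adamts1 in this depot were named after their values were seen.

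Cell type markers moved as well in this depot. The 18 macrophage genes summed to 1470 to 2090 CPM at 0d and 5530 to 11400 CPM at 12w, and 15 of 17 tested were higher, with Clec4f, a Kupffer cell gene, at 0 in all 12w libraries. The adipocyte list fell in 10 of 12 genes and the endothelial list in 8 of 9. Of all genes, 60.4% were called in either direction and 31.0% were higher. In bulk RNA, more or fewer cells of a type and more or less RNA per cell cannot be told apart. In all, 25 pairs of gene and marker list were correlated within time points as above, with libraries permuted within time points, and p-values were adjusted over the 25. The smallest p that 100000 permutations can give is 1e-05, which adjusts to 2.1e-05. Over the 96 epididymal libraries the macrophage sum was correlated with Timp1 at r = 0.831 and rho = 0.747, with Mmp12 at r = 0.743 and rho = 0.734, with Mmp19 at r = 0.573 and rho = 0.554, with Mmp13 at r = 0.517 and rho = 0.402 and with Mmp3 at r = 0.505 and rho = 0.595. For Lox the values were r = 0.147 and rho = 0.179 (adjusted permutation p = 0.196 and 0.131, r = 0.164 without the 2 farthest). Timp3 followed the endothelial sum at r = 0.811 and rho = 0.732, and Timp4 had r = 0.052 and rho = 0.045 (adjusted permutation p = 0.744 and 0.729, r = 0.093 without the 2 farthest). Leaving out the 2 libraries farthest from the median marker sum left r at 0.809 for Timp1, 0.722 for Mmp12, 0.590 for Mmp19, 0.503 for Mmp13, 0.449 for Mmp3 and 0.763 for Timp3. The adjusted permutation p of these 6 pairs lay between 2.1e-05 and 0.000846 on both measures. What part cell composition had in the changes was not tested.

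**Figure D3:**
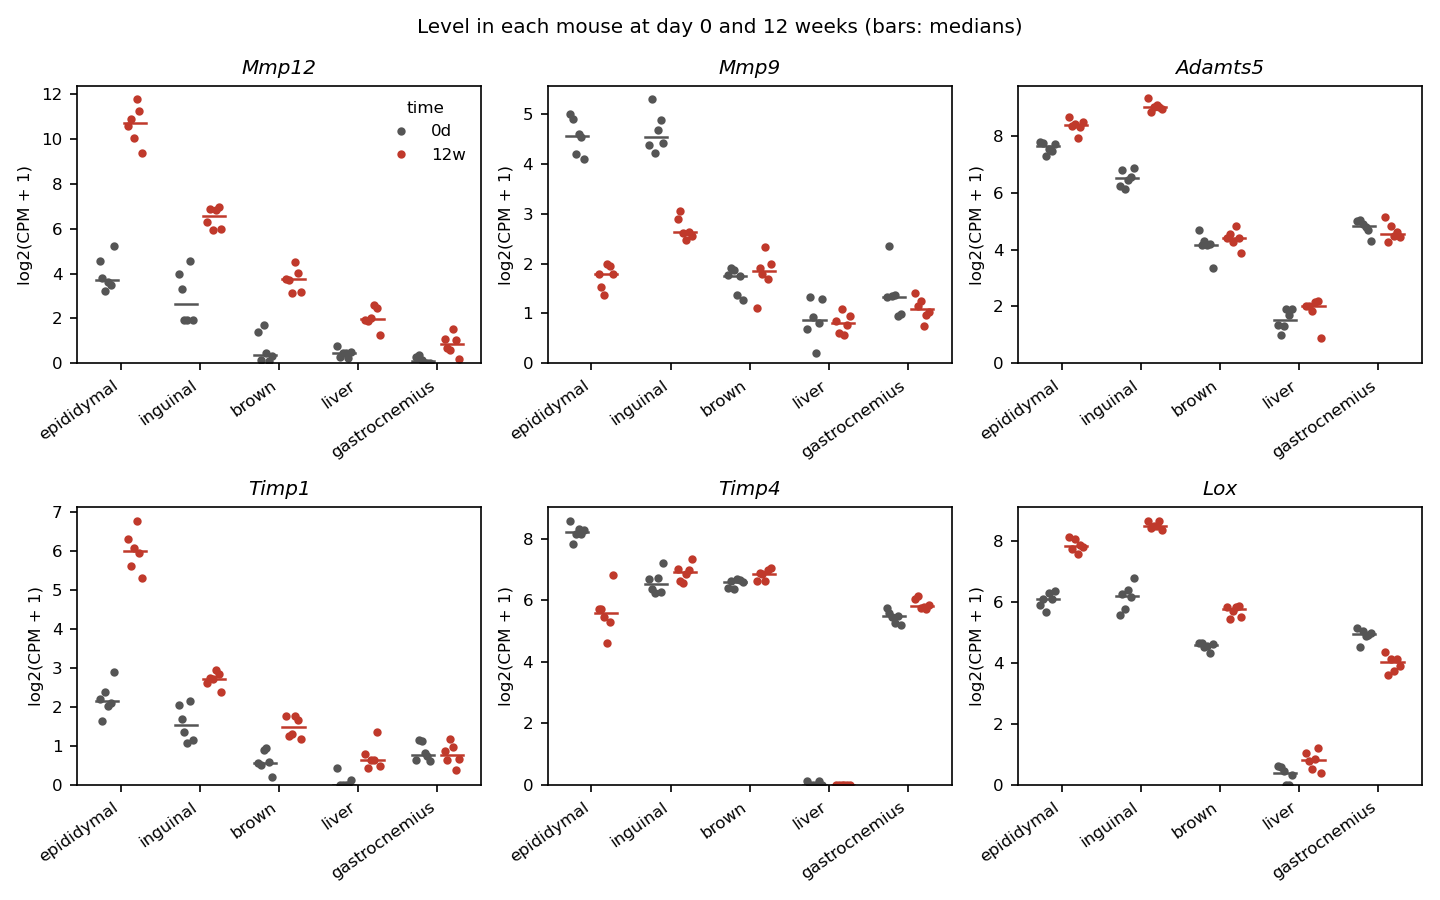
Level of 6 genes as log2(CPM + 1), 1 point per mouse, at 0d (grey) and 12w (red) in 5 organs, with bars at the medians. Mmp12 rises in all 5 organs, Mmp9 falls in the 2 white depots, Timp4 falls in epididymal fat, and Lox rises in the 3 fat depots and falls in gastrocnemius.

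The epididymal courses fell into early and late changes. Some matrix genes were called within days: Lox was higher from 3d (0.99 ± 0.18) and at 14 of the 15 later times, Adamts5 at all 15, and Mmp13 from 3d, with 3.40 ± 0.58 at 1w. Loxl1 was the member with the smallest p at 1d (0.59 ± 0.13), followed by the ADAMTS-like gene Adamtsl2 (1.35 ± 0.31) and Mmp28, known as epilysin (0.69 ± 0.16). Adamts16 reached 2.51 ± 0.42 at 1w and Mmp23 had the smallest p at 3d (-0.69 ± 0.11). Mmp9 and Mmp7 were lower from 3d onward. Others came late. Median Mmp12 was 12.1 CPM at 0d, 5.18 at 3d, 36.2 at 4w, 96.3 at 5w, 410.3 at 8w and 1702 at 12w, and it was called from 5w. Timp1 was higher from 7w and Timp4 lower from 8w, after a passing drop at 3d (-1.09 ± 0.34). In between, at 2w, the Timp4 mean was 447 CPM, against 300.4 CPM at 0d. Called members, higher and lower, numbered 7 and 1 of 49 at 1d (19.0% of all genes called), 17 and 8 at 3d (37.9%), 19 and 5 at 1w (36.4%), 4 and 13 at 2w (39.3%) and 22 and 14 at 16w (60.0%). Without the 3d libraries that held pancreas or muscle RNA (replicates 6 and 2), 13 were higher and 11 lower at 3d, 20 of them shared, beside 32.4% of all genes. The calls of Lox (0.83 ± 0.19), Adamts5, Mmp13 (2.00 ± 0.65), Mmp23, Mmp9, Mmp7 and Timp4 (-1.05 ± 0.39) at 3d held in that fit, which was added after the data were seen. Over all times, an F test called all 49 tested genes in this depot, beside 90.7% of all genes.

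**Figure D4:**
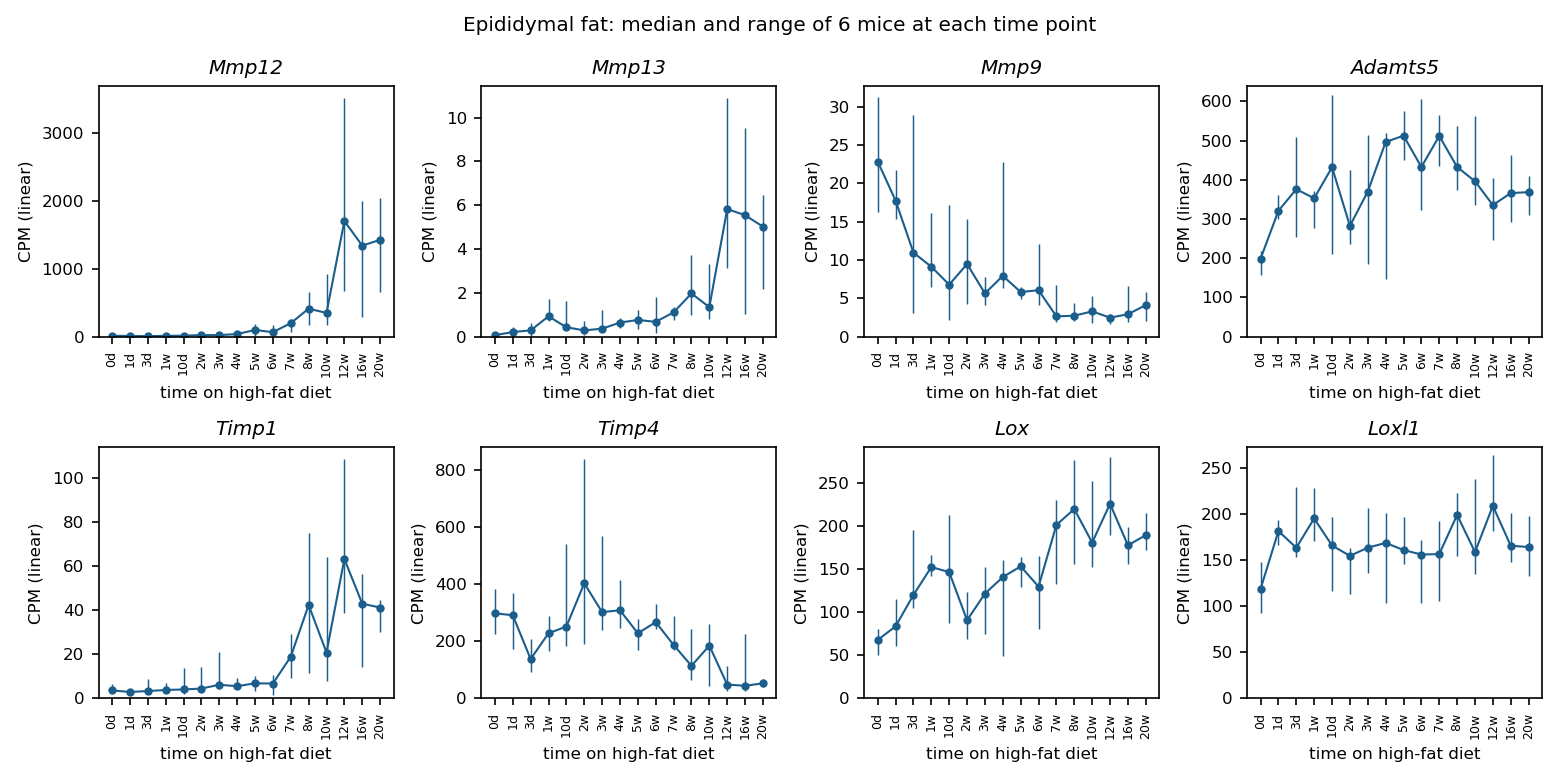
CPM on linear axes from 0 against time on the diet for 8 genes in epididymal fat, with points at the median and bars from the lowest to the highest of 6 mice. Mmp12 and Timp1 stay low until 6w and are highest at 12w, Lox, Loxl1 and Adamts5 are above 0d within the first week, and Mmp9 declines from the first days.

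Between 12w and 20w, 1 epididymal member differed by test. At 20w 18 genes were higher and 14 lower than at 0d of 49 (60.8% of all genes called), and the 20w and 12w groups share those 0d mice. Mmp12 had a median of 12.1 CPM at 0d (lowest mouse 8.44, highest 36.1) and of 1425 CPM at 20w (lowest 662, highest 2045). Mmp12 was higher in each mouse at 20w than in any at 0d, and its log2 fold change was 6.39 ± 0.60 (SE; edgeR adjusted p = 1.3e-15). The 20w changes against 0d were 3.39 ± 0.45 for Timp1, -2.54 ± 0.35 for Timp4, -2.55 ± 0.36 for Mmp9, 1.51 ± 0.18 for Lox and 4.31 ± 0.55 for Mmp3. Compared directly, 20w differed from 12w in 1 of 49 genes, against 1.91% of all genes. That gene was Adamts19, at a median of 1.6 CPM at 12w and 0.395 CPM at 20w, which fell by 1.74 on the log2 scale (SE 0.40, edgeR adjusted p = 0.0068). With the 12w and 20w groups fitted alone, 7 genes were called.

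In inguinal white fat, the subcutaneous depot, Lox, the aggrecanase Adamts5 and Mmp12 were among the genes that rose, and Mmp9 fell. Of 16 MMP genes 5 were higher and 4 lower, of 18 ADAMTS genes 8 and 2, and of 5 ADAMTS-like genes 4 and 0. Of all genes, 44.6% were called in either direction and 21.5% were higher. Lox ranged from 46.2 to 111 CPM at 0d (median 73.3) and from 326 to 407 CPM at 12w (median 364). All 6 Lox values at 12w were above all 6 at 0d, with a log2 fold change of 2.32 ± 0.26 (SE; edgeR adjusted p = 2e-11). Adamts5 lay between 69.3 and 117 CPM at 0d, with a median of 90.5, and between 458 and 649 CPM at 12w, with a median of 523. The Adamts5 groups did not overlap, with every 12w value on the higher side, and the log2 fold change was 2.53 ± 0.28 (SE; edgeR adjusted p = 2.4e-11). Adamts2 rose from a median of 102 to 237 CPM (1.26 ± 0.25, edgeR adjusted p = 3.3e-05, groups apart). Mmp19 had a median of 47.9 CPM at 0d (lowest mouse 34.9, highest 53.4) and of 119 CPM at 12w (lowest 112, highest 137). Mmp19 was higher in each mouse at 12w than in any at 0d, and its log2 fold change was 1.41 ± 0.16 (SE; edgeR adjusted p = 3.8e-11). Tmem198b rose by 0.80 ± 0.12 in the same fit. Mmp12 ranged from 2.75 to 22.2 CPM at 0d (median 5.91) and from 61.5 to 125 CPM at 12w (median 95.2). All 6 Mmp12 values at 12w were above all 6 at 0d, with a log2 fold change of 3.36 ± 0.50 (SE; edgeR adjusted p = 1e-07). The macrophage list as a whole was higher in 6 and lower in 2 of 17 genes here, and the lipid-associated macrophage list higher in 14 of 15. The second list holds lipid genes such as Lpl, Cd36 and Plin2, and bulk RNA does not show which cells they came from. Mmp12 followed the macrophage sum within time points at r = 0.274 and rho = 0.295 (84 libraries, adjusted permutation p = 0.0529 and 0.0138, r = 0.152 without the 2 farthest). Mmp13 rose from a median of 0.142 to 1.3 CPM (2.87 ± 0.47, edgeR adjusted p = 7.3e-07, groups apart). Here too it was tested through libraries later than 0d. Mmp9 lay between 17.6 and 38.8 CPM at 0d, with a median of 22.6, and between 4.58 and 7.34 CPM at 12w, with a median of 5.19. The Mmp9 groups did not overlap, with every 12w value on the lower side, and the log2 fold change was -2.16 ± 0.32 (SE; edgeR adjusted p = 7.7e-08).

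A few inguinal genes dropped to very low levels. Adamts20, a protease known for its part in pigment cell migration, had a median of 2.79 CPM at 0d (lowest mouse 1.95, highest 3.23) and of 0.297 CPM at 12w (lowest 0, highest 1.13). Adamts20 was lower in each mouse at 12w than in any at 0d, and its log2 fold change was -2.91 ± 0.50 (SE; edgeR adjusted p = 2.5e-06). Mmp25, a membrane-anchored MMP of leukocytes, ranged from 3.67 to 9.49 CPM at 0d (median 7.4) and from 0.215 to 1.33 CPM at 12w (median 0.742). All 6 Mmp25 values at 12w were below all 6 at 0d, with a log2 fold change of -3.25 ± 0.83 (SE; edgeR adjusted p = 0.001). Adamts13, which cleaves von Willebrand factor, ranged from 0.524 to 2.4 CPM at 0d (median 1.82) and had no count in any of the 6 libraries at 12w. The Adamts13 groups did not overlap, and the difference passed the test (edgeR adjusted p = 7.5e-05). From 167 counts at 0d to 0 at 12w, Adamts13 was at least 52.6-fold lower (floor of 3 counts over the group). B cell and lymph node markers fell in 11 of 11 genes in this depot, beside 44.6% of all genes called in either direction. Within time points over 84 libraries their sum was correlated with Mmp25 at r = 0.863 and rho = 0.853 and with Adamts13 at r = 0.732 and rho = 0.744, with r of 0.845 and 0.707 without the 2 farthest libraries and adjusted permutation p = 2.1e-05 each. Adamts20 gave r = 0.346 and rho = 0.359 (adjusted permutation p = 0.00779 and 0.00394, r = 0.348) and Mmp9 r = 0.015 and rho = -0.024 (adjusted permutation p = 0.914 and 0.846, r = 0.078). T cell markers fell in 8 of 8 genes and neutrophil markers in 5 of 8. What part lymph node tissue had in these changes was not tested. Mmp25 and Adamts13 were named after their values were seen.

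Among the inguinal inhibitors and the cross-linkers other than Lox, Timp1, Loxl1 and Loxl2 passed the test. Timp1 rose (1.40 ± 0.46, edgeR adjusted p = 0.01), while Timp2 (0.18 ± 0.14), Timp3 (0.44 ± 0.25) and Timp4 (0.30 ± 0.35) did not pass the test, nor did Syn3 (0.25 ± 0.20). Loxl1 (0.70 ± 0.16) and Loxl2 (0.61 ± 0.25, edgeR adjusted p = 0.042) passed, and Loxl3 (0.25 ± 0.11) and Loxl4 (0.35 ± 0.29) did not. The Loxl2 call was lost with 1 library fewer per group (edgeR adjusted p = 0.073). Adamts5 was called higher at every time from 3d, and Lox at 3d, 1w and 10d, not at 2w, and then without a break from 3w. Lox followed the fibroblast and preadipocyte sum within time points at r = 0.794 and rho = 0.732 in inguinal fat (adjusted permutation p = 2.1e-05, r = 0.773 without the 2 farthest libraries), and at r = 0.341 and rho = 0.334 in epididymal fat (adjusted permutation p = 0.00423 and 0.00409, r = 0.232 without them). At 12w the same marker list was higher in 5 and lower in 1 of 13 genes in inguinal fat, beside 44.6% of all genes called. Skeletal muscle markers summed to 34.3 to 32400 CPM at 0d and 6860 to 30900 CPM at 12w in this depot. The part of these in the Lox change was not tested.

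Whether the 12w change differed between depots was tested directly. Between the white depots it differed in 23 of 51 tested genes, against 40.3% of all genes. Timp4 changed by -2.50 in epididymal and 0.30 in inguinal fat, a difference of -2.80 ± 0.49 (edgeR adjusted p = 1.2e-06). Adamts5 rose less in the epididymal depot (difference -1.75 ± 0.33) and Adamts1 moved apart by -2.03 ± 0.40. Mmp3 rose more in epididymal fat by 2.95 ± 0.58. Against brown fat, 27 of 49 genes differed (40.4% of all genes), led by Mmp19 (2.13 ± 0.23, edgeR adjusted p = 7.9e-15), Mmp2 (2.23 ± 0.30), Timp4 (-2.82 ± 0.39) and Mmp9 (-3.56 ± 0.50). All 8 differences are epididymal minus the other depot on the log2 scale.

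In brown fat Adamtsl5, Mmp12, Lox and Timp3 rose, while Mmp9, Mmp19 and Timp4 did not pass the test. Adamtsl5 had a median of 3.81 CPM at 0d (lowest mouse 3.04, highest 4.82) and of 11.2 CPM at 12w (lowest 9.32, highest 14.3). Adamtsl5 was higher in each mouse at 12w than in any at 0d, and its log2 fold change was 1.56 ± 0.19 (SE; edgeR adjusted p = 8.3e-10). Adamtsl5 was called higher at all 13 later times. Mmp12 ranged from 0.0812 to 2.22 CPM at 0d (median 0.306) and from 7.72 to 21.6 CPM at 12w (median 12.5). All 6 Mmp12 values at 12w were above all 6 at 0d, with a log2 fold change of 4.08 ± 0.65 (SE; edgeR adjusted p = 6.8e-07). The 0d group of Mmp12 alone would not have passed the filter, so it was tested there through later libraries. Macrophage markers rose in 10 of 16 tested genes there, where 27.6% of all genes were called in either direction. Their sum ran from 157 to 404 CPM at 0d and from 293 to 593 CPM at 12w. Within time points that sum was correlated with Mmp12 at r = 0.609 and rho = 0.542 (84 libraries, adjusted permutation p = 2.1e-05, r = 0.624 without the 2 farthest). Lox lay between 18.8 and 23.9 CPM at 0d, with a median of 23.1, and between 42.1 and 57.2 CPM at 12w, with a median of 53.4. The Lox groups did not overlap, with every 12w value on the higher side, and the log2 fold change was 1.18 ± 0.21 (SE; edgeR adjusted p = 5.5e-06). Lox was called from 7w. Timp3 had a median of 249 CPM at 0d (lowest mouse 183, highest 259) and of 398 CPM at 12w (lowest 280.4, highest 466). Timp3 was higher in each mouse at 12w than in any at 0d, and its log2 fold change was 0.73 ± 0.21 (SE; edgeR adjusted p = 0.0055). Its partner Syn3 rose with it, by 0.79 ± 0.17. Mmp2 fell from a median of 38.3 to 24.9 CPM (-0.74 ± 0.19, edgeR adjusted p = 0.0024, groups overlapping). Mmp2 in brown fat was named after its values were seen.

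Brown fat also had calls with lower levels, and 1 early peak. Adamts6, linked to fibrillin microfibrils, rose by 1.68 ± 0.33, Mmp13 by 3.34 ± 0.77, Mmp15 by 0.87 ± 0.20 and Loxl3 by 0.47 ± 0.09. Timp1 passed at 1.79 ± 0.57 (edgeR adjusted p = 0.013), a call lost with 1 library fewer per group (1.48, edgeR adjusted p = 0.075). Its 0d levels were too low for the filter, so it was tested through later libraries. Timp2 (0.01 ± 0.17), Timp4 (0.28 ± 0.17), Loxl1 (0.20 ± 0.20), Loxl2 (0.03 ± 0.20) and Loxl4 (0.06 ± 0.48) did not pass at 12w. Loxl1 had an early peak: its median was 33.3 CPM at 0d, 80.2 at 1d and 39.4 at 12w. The 1d change was 1.38 ± 0.20 (edgeR adjusted p = 4.7e-07), and Loxl1 was also the member with the smallest p at 1d in both white depots. Adamts12, a protease that cleaves cartilage oligomeric matrix protein, was lower in brown fat from 1w.

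In the liver 13 of 33 tested genes were higher at 12w and 1 was lower. Of all genes, 20.6% were higher and 42.0% were called in either direction. The median log2 fold change of the tested genes was 0.208 at 8w, -0.0305 at 10w and 0.362 at 12w. For all genes it was 0.00453, 0.00361 and 0.00684. Mmp24, a membrane-type MMP, ranged from 3.35 to 6.73 CPM at 0d (median 5.33) and from 8.41 to 12.3 CPM at 12w (median 11.8). All 6 Mmp24 values at 12w were above all 6 at 0d, with a log2 fold change of 1.12 ± 0.15 (SE; edgeR adjusted p = 1.5e-09). Its partner BC029722 rose by 1.03 ± 0.12 (edgeR adjusted p = 1.2e-11). Mmp12 lay between 0.187 and 0.691 CPM at 0d, with a median of 0.37, and between 1.39 and 5.06 CPM at 12w, with a median of 2.92. The Mmp12 groups did not overlap, with every 12w value on the higher side, and the log2 fold change was 3.07 ± 0.42 (SE; edgeR adjusted p = 5.5e-09). Of 17 macrophage markers in liver 1 was higher and 2 lower, their sum ran from 399 to 551 CPM at 0d and from 382 to 537 CPM at 12w, and the correlation within time points was r = 0.042 and rho = 0.049 over 84 libraries (adjusted permutation p = 0.823 and 0.729, r = 0.147 without the 2 farthest). The lipid-associated macrophage list was higher in 9 and lower in 3 of 15 genes, where 42.0% of all genes were called in either direction. Its sum gave r = 0.263 and rho = 0.176 with Mmp12 (adjusted permutation p = 0.0512 and 0.182, r = 0.270). The list holds lipid genes such as Lpl and Plin2, and bulk RNA does not show which cells they came from. Adamts1 had a median of 9.83 CPM at 0d (lowest mouse 7.48, highest 11.7) and of 16.5 CPM at 12w (lowest 11.3, highest 20.3). The Adamts1 groups overlapped in part while Adamts1 rose by test, at a log2 fold change of 0.78 ± 0.13 (SE; edgeR adjusted p = 6.3e-07). Adamtsl2, a protein that binds fibrillin and the latent TGF-beta complex, rose from a median of 9.3 to 15.8 CPM (0.69 ± 0.15, edgeR adjusted p = 8.3e-05, groups apart). Loxl2 rose from a median of 2.47 to 6.27 CPM (0.99 ± 0.21, edgeR adjusted p = 8.5e-05, groups overlapping). Loxl2 was called at 12w only.

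Of the members called in liver at 12w, 1 ran against the rest. Adamts7, a protease of cartilage oligomeric matrix protein, ranged from 7.95 to 11.9 CPM at 0d (median 8.93) and from 3.63 to 6.2 CPM at 12w (median 5.17). All 6 Adamts7 values at 12w were below all 6 at 0d, with a log2 fold change of -0.89 ± 0.19 (SE; edgeR adjusted p = 5.3e-05). Its median was already 4.54 CPM at 1d (-1.02 ± 0.19), and it was lower at 11 of the 13 later times. Tbc1d2b, which shares exon sequence with it on the other strand, fell by 0.63 on the log2 scale at 12w. Adamts10 rose by 0.56 ± 0.15 and Mmp23 by 1.29 ± 0.36. Of the inhibitors, Timp2 passed at 0.29 ± 0.11 (edgeR adjusted p = 0.03) but not with offsets for GC content and length (0.18, edgeR adjusted p = 0.17), and Timp3 did not (0.30 ± 0.15), while its partner Syn3 rose by 0.43 ± 0.15 (edgeR adjusted p = 0.015). Loxl1 (0.60 ± 0.27), Loxl3 (0.11 ± 0.14) and Loxl4 (-0.11 ± 0.36) did not pass.

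Lists of genes that act beside these families were counted in the same fits. In epididymal fat, 16 of 24 other matrix proteases were higher and 3 lower (median log2 fold change 1.18), led by the lysosomal cathepsins Ctsk (3.64 ± 0.26), Ctsb (2.07 ± 0.15) and Ctsd (2.32 ± 0.18), all 3 of which the lipid-associated macrophage list holds too. Collagen processing enzymes rose in 12 of 19 genes there, with P4hb at 0.56 ± 0.07, P4ha1 at 0.77 ± 0.11 and Pcolce2 at 2.03 ± 0.29. Fibrillar collagens were higher in 6 and lower in 1 of 10 genes. In inguinal fat 14 of 23 other proteases and 11 of 18 collagen processing genes were higher, and none lower. In liver the figures were 12 higher and 3 lower of 23, and 10 and 1 of 17, with 6 of 8 fibrillar collagens higher. Gastrocnemius had none higher and 6 lower of 11 fibrillar collagens. Background shares of higher calls were 31.0% in epididymal fat, 21.5% in inguinal fat and 20.6% in liver, and 3.54% of genes were lower in gastrocnemius.

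In gastrocnemius muscle, Lox fell where it rose in fat. Lox lay between 21.9 and 34.3 CPM at 0d, with a median of 29.9, and between 11.2 and 19.8 CPM at 12w, with a median of 15.2. The Lox groups did not overlap, with every 12w value on the lower side, and the log2 fold change was -0.96 ± 0.18 (SE; edgeR adjusted p = 0.00012). It was lower at 12 of the 13 later times, from 3d on. Adamts12 had a median of 9.39 CPM at 0d (lowest mouse 7.46, highest 15.5) and of 4.69 CPM at 12w (lowest 3.7, highest 6.67). Adamts12 was lower in each mouse at 12w than in any at 0d, and its log2 fold change was -1.07 ± 0.22 (SE; edgeR adjusted p = 0.00064). Adamts2 fell from a median of 24.4 to 14.4 CPM (-0.80 ± 0.17, edgeR adjusted p = 0.00095, groups apart). Mmp12 rose by 2.93 ± 0.62 (edgeR adjusted p = 0.00065), from a median of 0.0569 to 0.818 CPM. Lox followed the fibroblast sum within time points at r = 0.440 and rho = 0.403 (84 libraries, adjusted permutation p = 0.000839 and 0.00186, r = 0.476 without the 2 farthest). The fibroblast list itself was lower in 2 of 13 genes at 12w, beside 3.54% of all genes. At 10w, 4 members were higher and 15 lower of 41, beside 31.2% of all genes. With only the 0d and 12w groups fitted, 11 members were called at 12w in place of 6.

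**Figure D5:**
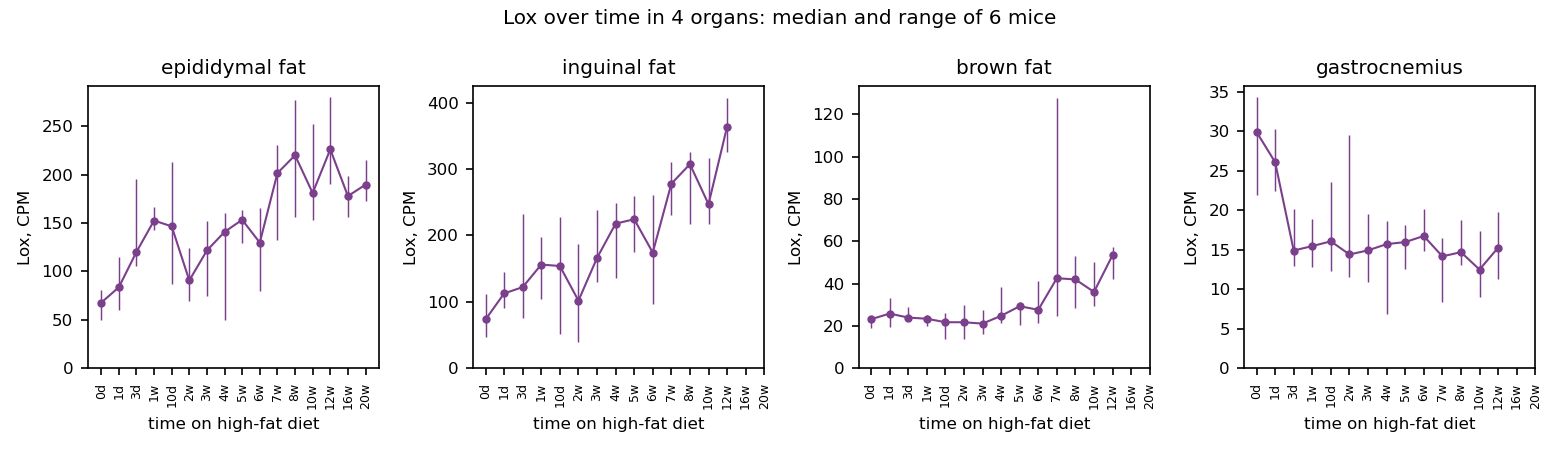
Lox in CPM, on linear axes from 0, against time on the diet in 4 organs, with points at the median and bars from the lowest to the highest of 6 mice. Lox climbs in the 3 fat depots, to medians of 226, 364 and 53.4 CPM at 12w, and stays below its 0d median of 29.9 CPM in gastrocnemius.

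Soleus, the slow-fibre muscle, gave 2 calls. In simulated counts 43.3% of 2-fold changes were called in this organ, so a gene not called may still have changed. Adamts1 ranged from 5.17 to 62.9 CPM at 0d (median 35.1) and from 48 to 157 CPM at 12w (median 111). The Adamts1 groups overlapped in part while Adamts1 rose by test, at a log2 fold change of 1.65 ± 0.49 (SE; edgeR adjusted p = 0.035). Adamts2 lay between 9.06 and 20.6 CPM at 0d, with a median of 15.3, and between 5.37 and 11.5 CPM at 12w, with a median of 8.84. Some Adamts2 values overlapped between the groups, and the log2 fold change was -0.87 ± 0.26 (SE; edgeR adjusted p = 0.035). Both were lost with 1 library fewer per group (edgeR adjusted p = 0.082 and 0.12), which drops replicate 1 at 0d. That library alone held 80.9 CPM of Timp1, and 2594 CPM of Mmp11 with 3723 CPM of Chchd10. No member's 12w change differed between soleus and gastrocnemius by edgeR (0 of 43, against 0.348% of all genes, with 2 at an unadjusted p under 0.05). In pancreas Adamts12 had a median of 3.41 CPM at 0d (lowest mouse 2.34, highest 4.8) and of 1.09 CPM at 12w (lowest 0.562, highest 1.83). Adamts12 was lower in each mouse at 12w than in any at 0d, and its log2 fold change was -1.55 ± 0.34 (SE; edgeR adjusted p = 0.0013). Mmp11 fell by 0.69 on the log2 scale there, beside -0.73 ± 0.18 for Chchd10, a call lost with 1 library fewer per group (-0.64, edgeR adjusted p = 0.05).

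In small intestine Mmp9 fell, and Mmp11, Mmp2, Adamts10 and Adamts13 rose. Mmp9 ranged from 9.29 to 12.8 CPM at 0d (median 10.6) and from 2.57 to 4.03 CPM at 12w (median 3.59). All 6 Mmp9 values at 12w were below all 6 at 0d, with a log2 fold change of -1.66 ± 0.18 (SE; edgeR adjusted p = 2.2e-12). It was called lower from 10d. Mmp11 lay between 49.2 and 66.9 CPM at 0d, with a median of 60.2, and between 78.1 and 97.4 CPM at 12w, with a median of 84.7. The Mmp11 groups did not overlap, with every 12w value on the higher side, and the log2 fold change was 0.55 ± 0.06 (SE; edgeR adjusted p = 4.1e-11). Chchd10 rose by 0.59 ± 0.06 in the same fit. Mmp2 rose from a median of 14.4 to 22.9 CPM (0.58 ± 0.09, edgeR adjusted p = 4.9e-07, groups apart). Adamts10, a protease linked to microfibrils, rose from a median of 9.77 to 14.1 CPM (0.58 ± 0.10, edgeR adjusted p = 1.5e-06, groups overlapping). Adamts13 had a median of 0.367 CPM at 0d (lowest mouse 0.193, highest 0.614) and of 1.24 CPM at 12w (lowest 0.714, highest 1.8). Adamts13 was higher in each mouse at 12w than in any at 0d, and its log2 fold change was 1.71 ± 0.32 (SE; edgeR adjusted p = 1.3e-05). Adamts13 was higher at all 13 later times. The Paneth cell gene Mmp7 did not pass at 12w (-0.06 ± 0.12), and Mmp10 did (0.34 ± 0.07, edgeR adjusted p = 0.00012). Adamts13, Mmp7 and Mmp10 at 12w were named after their values were seen. At 1d 11 genes were higher and 1 lower of 45, beside 23.5% of all genes.

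In the pituitary Adamts10, Mmp3 and Adamtsl4 fell, and Mmp16 and Mmp8 rose. Apart from Mmp3, which was lower from 1d, each was called at 3d and at all 12 times from then on. Adamts10 ranged from 49.5 to 55.5 CPM at 0d (median 53.2) and from 15.6 to 24.1 CPM at 12w (median 19). All 6 Adamts10 values at 12w were below all 6 at 0d, with a log2 fold change of -1.46 ± 0.15 (SE; edgeR adjusted p = 2.1e-13). Its median was 63.2 CPM at 1d and 24.1 at 3d. Mmp3 lay between 2.49 and 4.85 CPM at 0d, with a median of 3.98, and between 0 and 0.276 CPM at 12w, with a median of 0. The Mmp3 groups did not overlap, with every 12w value on the lower side, and the log2 fold change was -5.50 ± 0.59 (SE; edgeR adjusted p = 1.3e-12). Mmp3 was lower at all 13 later times. Mmp16, a membrane-type MMP of the nervous system, had a median of 3.72 CPM at 0d (lowest mouse 2.47, highest 4.46) and of 7.58 CPM at 12w (lowest 6.42, highest 8.95). Mmp16 was higher in each mouse at 12w than in any at 0d, and its log2 fold change was 1.12 ± 0.16 (SE; edgeR adjusted p = 5.5e-09). Mmp8 rose from a median of 6.54 to 12.7 CPM (0.92 ± 0.15, edgeR adjusted p = 2.6e-07, groups apart), after a median of 16.7 CPM at 3d. Adamtsl4 fell from a median of 24.1 to 11.2 CPM (-1.10 ± 0.15, edgeR adjusted p = 6.2e-09, groups apart). Mmp8 at 12w was named after its values were seen. Over all genes, 0.146% were called at 1d and 40.0% at 3d, and what part the day of dissection had was not tested.

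Adamts4 and Adamts16 were each among the strongest calls in 3 of the 4 brain regions. Adamts4 is a proteoglycanase of brevican that oligodendrocytes are known to make. In hippocampus Adamts4 ranged from 29.5 to 39.6 CPM at 0d (median 31) and from 18.3 to 21.9 CPM at 12w (median 21). All 6 Adamts4 values at 12w were below all 6 at 0d, with a log2 fold change of -0.68 ± 0.11 (SE; edgeR adjusted p = 7e-07). In neocortex Adamts4 fell from a median of 33.4 to 23.9 CPM (-0.48 ± 0.08, edgeR adjusted p = 1e-06, groups apart). In hypothalamus Adamts4 fell from a median of 51.7 to 37.8 CPM (-0.46 ± 0.07, edgeR adjusted p = 5.9e-06, groups apart). In hippocampus and neocortex Adamts4 was called from 4w. The olfactory bulb value (-0.23 ± 0.16) did not pass the test. There, Mmp16 lay between 10.7 and 16.5 CPM at 0d, with a median of 13.7, and between 7.91 and 12.5 CPM at 12w, with a median of 10.3. The Mmp16 groups overlapped in part while Mmp16 fell by test, at a log2 fold change of -0.45 ± 0.10 (SE; edgeR adjusted p = 0.00084). Adamts16 was lower in neocortex (-0.69 ± 0.16), hypothalamus (-0.40 ± 0.10) and olfactory bulb (-0.79 ± 0.19), while it was higher in epididymal fat (1.71 ± 0.41). In hippocampus Mmp2 was lower (-0.72 ± 0.26, groups overlapping) and followed meningeal markers within time points at r = 0.567 and rho = 0.526 (84 libraries, adjusted permutation p = 2.1e-05, r = 0.550 without the 2 farthest), while none of the 10 meningeal genes was called at 12w. Adamtsl4, which did not pass (-0.32 ± 0.16), gave r = 0.348 and rho = 0.382 with choroid plexus markers (adjusted permutation p = 0.00647 and 0.00222, r = 0.365). Both were named after their values were seen. Mmp17 rose slightly in hippocampus (0.18 ± 0.04), a call lost with offsets for GC content and length (0.08, edgeR adjusted p = 0.13).

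Across organs, few members moved in 1 direction everywhere they were tested. Mmp12 was tested in 7 organs and was higher at 12w in all 7 (3 fat depots, liver, small intestine, gastrocnemius and pituitary). In brown fat, liver and gastrocnemius its 0d group alone would not have passed the filter, so it was tested there through later libraries. Being tested and being higher are thus tied, and the count is no independent sign of a shared direction. In small intestine the F test over all times did not call Mmp12. Adamts2 was called in 7 of 13 organs, higher in 4 and lower in 3. Adamts1 was higher in 5 and lower in 1, Loxl2 higher in 4 and lower in 2, and Mmp19 higher in 3 and lower in 3. Of these calls, Adamts1 and Adamts2 in soleus and Loxl2 in inguinal fat were lost with 1 library fewer per group. Where Mmp19 was lower, Tmem198b changed by -0.36 (hippocampus), -0.47 (neocortex) and -0.91 (pituitary) on the log2 scale. In small intestine, where Mmp19 was higher, Tmem198b did not pass (0.19 ± 0.15). Timp1 was higher in the 3 fat depots and called in none of the other 7 organs in which it was tested, and Timp4 was called in epididymal fat alone of 12. The labels do not say which organs came from the same mouse.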

How the data were processed

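Polyadenylated RNA was extracted as total RNA with RNeasy kits and made into directional NEBNext Ultra II libraries, per the labels' protocols. The deposited table holds raw read counts per gene symbol for 1104 libraries, made by the authors. The submitters' processing notes name FastQC 0.11.7, Trimmomatic 0.38, HISAT2 2.1.0, SAMtools 1.9, featureCounts 1.6.3 and the mm10 (GRCm38) genome. Which annotation was counted, and whether by strand, is not stated there or in the labels. For Mmp11, Mmp24, Timp3 and Mmp19, which share exons with a gene on the opposite strand, 12w fold changes are given with the partner's.

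Each organ was fitted on its own in R 4.3.3 with edgeR 4.0.16: TMM scaling, filterByExpr (12391 to 15225 genes left, 32 to 49 of them members), 1 coefficient per time point, and the two-sided quasi-likelihood test with Benjamini-Hochberg adjustment at 0.05 over all genes tested. Fold changes are edgeR's, at the default prior count of its quasi-likelihood fit. A prior count of 2 was used only for log CPM in correlations between libraries and in the offsets. Differences between organs were interaction terms in a fit of both. Marker sums are sums of CPM over a list. Their correlations used deviations from each time point's mean of log2(CPM + 1), with 100000 permutations within time points. Counts at 12w and 20w within an organ were recomputed with RLE scaling, without the filter, with a block for the replicate number, with spline offsets (5 degrees of freedom) for GC content and length, with DESeq2 1.42.0, with only the compared groups in the model, and after removing 1 library per group. Interaction counts had the first 4 of these. The summed calls at other times and the F tests had RLE scaling alone. Fits without single libraries were added after seeing the data for the 3d count of epididymal fat and the 0d level of Mmp11 in soleus. The fits of epididymal fat, liver and soleus were tested on simulated counts with known 12w changes. Of 2-fold changes, 85.1%, 82.1% and 43.3% were called, in that order. Of 1.5-fold changes, 41.8%, 73.1% and 10.4% were called. No pair of libraries of the same organ and time point agreed within sampling noise (lowest chi-square per degree of freedom 2.131). Other pairs were not compared. Same-numbered mice at 0d and 12w did not deviate together in any organ on all 6 numbers.

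Members and lists were chosen with earlier results of these data known. Named at 12w were the called members with the smallest p, up to 12 in epididymal fat, 8 in inguinal fat, brown fat and liver and 4 in each other organ, leaving out those under a mean of 0.5 CPM in both groups. All Timp, Lox and Loxl genes of the fat depots and liver were named, as were the 3 smallest p at 1d, 3d and 1w, the 5 members called in most organs, the 4 smallest p of each interaction and of 20w against 12w, the 3 highest levels per kb at 0d, and the 3 smallest p of each list of other matrix genes. Some members these rules select are counted without being described, and members named outside them are marked as named after their values were seen. Promoter windows are RefSeq's on GRCm38.p6, and exon lengths and overlaps come from GENCODE M21, which matched 20295 of 20646 symbols. Sequences of chromosome 18 genes are not printed.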

Additional observations from a re-analysis of the deposited data

Results flagged for a closer look

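Of 140 groups of 6 mice whose values are given above, 9 held 1 mouse far from the nearest other, and chance alone flags about 5% of groups. In epididymal fat, Adamts1 at 0d was 162 CPM in replicate 2 against 96.2 CPM in the next mouse, and Timp2 at 0d was 425 CPM in replicate 3, with the next at 555 CPM. Also there, Mmp12 at 3d was 25.4 CPM in replicate 5 (next 9.95 CPM) and Timp4 at 12w was 112 CPM in replicate 6 (next 51.8 CPM), still below every 0d value. Adamts20 in inguinal fat at 12w was 1.13 CPM in replicate 2 (next 0.354 CPM), and Timp3 in brown fat at 0d was 183 CPM in replicate 2 (next 233 CPM). Adamts12 in gastrocnemius at 0d was 15.5 CPM in replicate 2 (next 9.92 CPM). Adamts10 in small intestine at 12w was 11.4 CPM in replicate 3 (next 13.8 CPM), and Mmp8 in pituitary at 0d was 5.45 CPM in replicate 3 (next 6.44 CPM).

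The 12w change differed between depots by an interaction term for 8 named pairs, given as epididymal minus the other depot on the log2 scale. Against inguinal fat these were Timp4 (-2.80), Adamts5 (-1.75), Adamts1 (-2.03) and Mmp3 (2.95). Against brown fat they were Mmp19 (2.13), Mmp2 (2.23), Timp4 (-2.82) and Mmp9 (-3.56). Tmem198b, which shares exon sequence with Mmp19, rose in epididymal fat too.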

How the results depend on the processing

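Most counts of called members at 12w and 20w stayed within 1.5 times their value under the alternatives run for them. The exceptions follow, and the cause was not tested. With only the groups compared in the fit, 7 members differed between 20w and 12w in epididymal fat in place of 1 (3 higher, 4 lower), 11 were called in gastrocnemius in place of 6 (5 shared), 5 in hippocampus in place of 8, and 0 in soleus in place of 2. Soleus gave 1 call with no filter on low counts, 4 with offsets for GC content and length, and 0 with 1 library fewer per group, while pancreas gave 1 in place of 2 with 1 library fewer. The soleus and gastrocnemius changes differed in 1 member with the offsets and in 0 without. Of 667 recalculations of named members over 99 changes, 652 kept direction and call, 15 kept direction and lost the call, and 0 reversed. The lost calls were of Timp1 in brown fat, Loxl2 in inguinal fat, Timp2 in liver, Mmp11 in pancreas, Mmp17 in hippocampus, Adamts6 in hypothalamus, and Adamts1 and Adamts2 in soleus. The replicate block kept the count of calls within 1.5 times in 18 of 18 comparisons and lost 1 named call, Loxl2 in inguinal fat (0.58, edgeR adjusted p = 0.057). Correlations of same-numbered mice had medians from -0.0784 to 0.272 per organ, and were over 0.1 for all 6 numbers in none. Among all called genes, the share that was higher went from 73.2% to 59.3% for 20w against 12w and from 40.4% to 51.4% in gastrocnemius with only the groups compared. For soleus against gastrocnemius it went from 53.2% to 42.6% with RLE factors and to 42.1% with no filter. Without the libraries that held pancreas or muscle RNA, 24 members were called at 3d in epididymal fat in place of 25. None of the other settings moved the median of all genes by over 0.1. Genes under about 1 CPM rest on few counts per library.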
